A study of Mus musculus with 15 samples.

Results

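Oncofetal genes are active in the embryo, fall nearly silent in most adult tissues and can return in tumors. The genes Hmga1, Hmga2, Igf2bp1, Igf2bp2, Igf2bp3, Lin28a, Lin28b, H19 and Igf2 were followed by symbol through mouse mammary RNA-seq tables that hold 51826 genes. These 9 genes were chosen as fetal growth genes that tumors can re-express, with their values in each tumor and gland in view. Their levels in tumors against glands are therefore given as a description without a test. For the members, only the comparisons between tumor classes were tested. The choice was not made on these comparisons, but the values of each class were in view. Their p are therefore not fully independent of the choice.

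The libraries came from 13 mice. In Trim24COE mice (Trim24LSL;MMTV-Cre Tg/0, FVB), a transgene descended from a single founder carries Flag-tagged mouse Trim24, a reader of histone marks, behind a lox-stop cassette that MMTV-driven Cre removes in mammary epithelium. Tumors labelled Trim24COE comprised 3 metaplastic carcinosarcomas (mice 64, 567 and 897), which mix epithelial and sarcoma-like tissue, and 3 carcinomas (mice 89, 273_5 and 3956). The controls were 4 disease-free mammary glands of MMTV-Cre mice without the transgene (133, 392, 417_3 and 517_3), so Cre is shared by all of these mice. A further 3 tumors without added TRIM24 (219, FVB001 and FVB002) arose spontaneously in FVB or FVB/129 mice, and their genotype label is unknown. Strain is given as FVB in the labels and as FVB/129 in the design text. The mice were virgin females, the glands were age-matched to the tumors, and the ages of the tumor-bearing Trim24COE mice, which the study lists and which differ between mice, were not used here. All 3 non-TRIM24 tumors were sequenced in batch 2, together with a repeat library of gland 133 and a repeat library of tumor 3956, whereas every other library was in batch 1. Pathologists differed on the class of tumors 89, 567 and 3956, and the study also lists classes based on RNA-seq, so class is not fully independent of the RNA.

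Values are TPM, a relative transcript level per unit of transcript length scaled to the same total in each library, so the number of reads behind a value is unknown. From 21060 to 34209 genes per library were above 0. The first library of gland 133 stood apart, with 18654 genes between 0.05 and 2 TPM against 9218 in its repeat and 7506 to 14173 elsewhere, and 5323 genes reached 0.5 TPM in the first library but not in the repeat. Trim24 itself was 15.3 ± 4.77 TPM (SD, n = 6) in Trim24COE tumors and 17.8 ± 3.45 (SD, n = 4) in glands, with overlapping ranges and an adjusted p of 0.557 (limma). The Trim24COE carcinomas had 18.1 TPM against 8.24 in non-TRIM24 tumors, without overlap (adjusted p = 0.479 with the batch term). Whether RNA of the transgene is counted in this gene-level value is not stated, so it is no check of the labels. Summed adipocyte markers ran from 2247 to 29039 TPM in the glands, from 105 to 1099 in Trim24COE tumors and from 137 to 40146 in non-TRIM24 tumors. By mean log2(TPM + 1) of the same markers, glands 417_3 (4.50) and 517_3 (4.32) lay below tumor 89 (5.13). They lay above every other Trim24COE tumor, and glands 133 (9.61) and 392 (9.77) lay above all of these tumors. The 10 mammary epithelial markers summed to 365 to 1425 TPM in carcinosarcomas and to 2481 to 5817 in carcinomas. In such bulk tissue, fewer cells of a type and less RNA per cell cannot be told apart.

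The 9 genes belong to a connected circuit. HMGA1 and HMGA2 are small architectural proteins that bind AT-rich DNA and open chromatin in growing embryonic tissue. LIN28A and LIN28B are RNA-binding proteins that block the maturation of let-7, a microRNA family that rises as tissues differentiate, and let-7 in turn represses the messenger RNAs of HMGA2, LIN28 and the IGF2BP family. The IGF2BP proteins bind and stabilize target messages such as that of IGF2. H19 and Igf2 are imprinted neighbors that share enhancers: the maternal copy makes the H19 long noncoding RNA, which also hosts miR-675, and the paternal copy makes the fetal growth factor IGF2.

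The let-7 sequences are shown because this family links the members. RefSeq (build GRCm38.p6) lists 11 mature let-7 family sequences, of which 10 share the seed in capitals (bases 2 to 8). Only let-7j has another seed. The H19-hosted miR-675 has unrelated seeds on both arms.
let-7a-5p: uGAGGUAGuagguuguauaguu
let-7g-5p: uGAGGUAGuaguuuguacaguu
miR-98-5p: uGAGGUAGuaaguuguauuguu
let-7j: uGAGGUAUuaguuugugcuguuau
miR-675-5p: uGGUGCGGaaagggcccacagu
miR-675-3p: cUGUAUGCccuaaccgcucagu

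The reverse complement of the shared seed, CTACCTC, was counted on the sense strand of the longest annotated 3′ untranslated region of each protein-coding gene (GENCODE M21, GRCm38). It occurred at least once in 9.1% of 20832 such regions and at least 2 times in 1.08%. Hmga2, Igf2bp1 and Lin28b each held 4 matches. No more than 4 genes of the genome held more. Among regions of similar length (0.8 to 1.25 times), 0.123% held as many as Hmga2, 0.331% as many as Igf2bp1 and 0.295% as many as Lin28b. Lin28a held 2 matches, a number reached by 2.06% of regions of its length. Hmga1, Igf2bp2 and Igf2bp3 held 1 each, against 8.24%, 12.1% and 13.3% of regions of like length with at least 1, and Igf2 held none. A match is a description of the letters and no measure of repression, and let-7 RNA was not analysed here. Example matches (capitals) follow for the genes with 4 matches and for Igf2bp2, the IGF2BP gene with the highest level in these tissues.
Hmga2 site 1 (chr10:120364224-120364247, minus strand): cgccgacattcaatttCTACCTCa
Hmga2 site 2 (chr10:120362987-120363010, minus strand): tccccactcctcaataCTACCTCt
Igf2bp1 site 1 (chr11:95961778-95961801, minus strand): tgctgtgcgaagtaaaCTACCTCa
Igf2bp2 site 1 (chr16:22059473-22059496, minus strand): aacacacaaataaaagCTACCTCa
Lin28b site 1 (chr10:45381022-45381045, minus strand): cacccgggcgggaagtCTACCTCa

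Hmga2 (ENSMUSG00000056758.14, chr10:120361275-120476469, minus strand) was under 1 TPM in every gland and over 1 TPM in every tumor. The margin was narrow, with 0.80 TPM in gland 133, 1.03 in FVB001 and 1.29 in tumor 89. Its level was 49.5, 44.9 and 80.6 TPM in carcinosarcomas 64, 567 and 897. Carcinomas 89, 273_5 and 3956 had 1.29, 23.2 and 267 TPM. Glands 133, 392, 417_3 and 517_3 had 0.80, 0.40, 0.09 and 0.12 TPM. The carcinosarcomas thus sat close together, the carcinomas spread widely, and all 6 Trim24COE tumors lay above all 4 glands. Non-TRIM24 tumors 219, FVB001 and FVB002 had 13.1, 1.03 and 7.98 TPM, also above all glands. The repeat library of tumor 3956 had 211 TPM and that of gland 133 had 0.22. Tumor 3956 exceeded the next Trim24COE tumor, 897, in both of its libraries, and tumor 89 was the lowest of the 6.

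**Figure D1:**
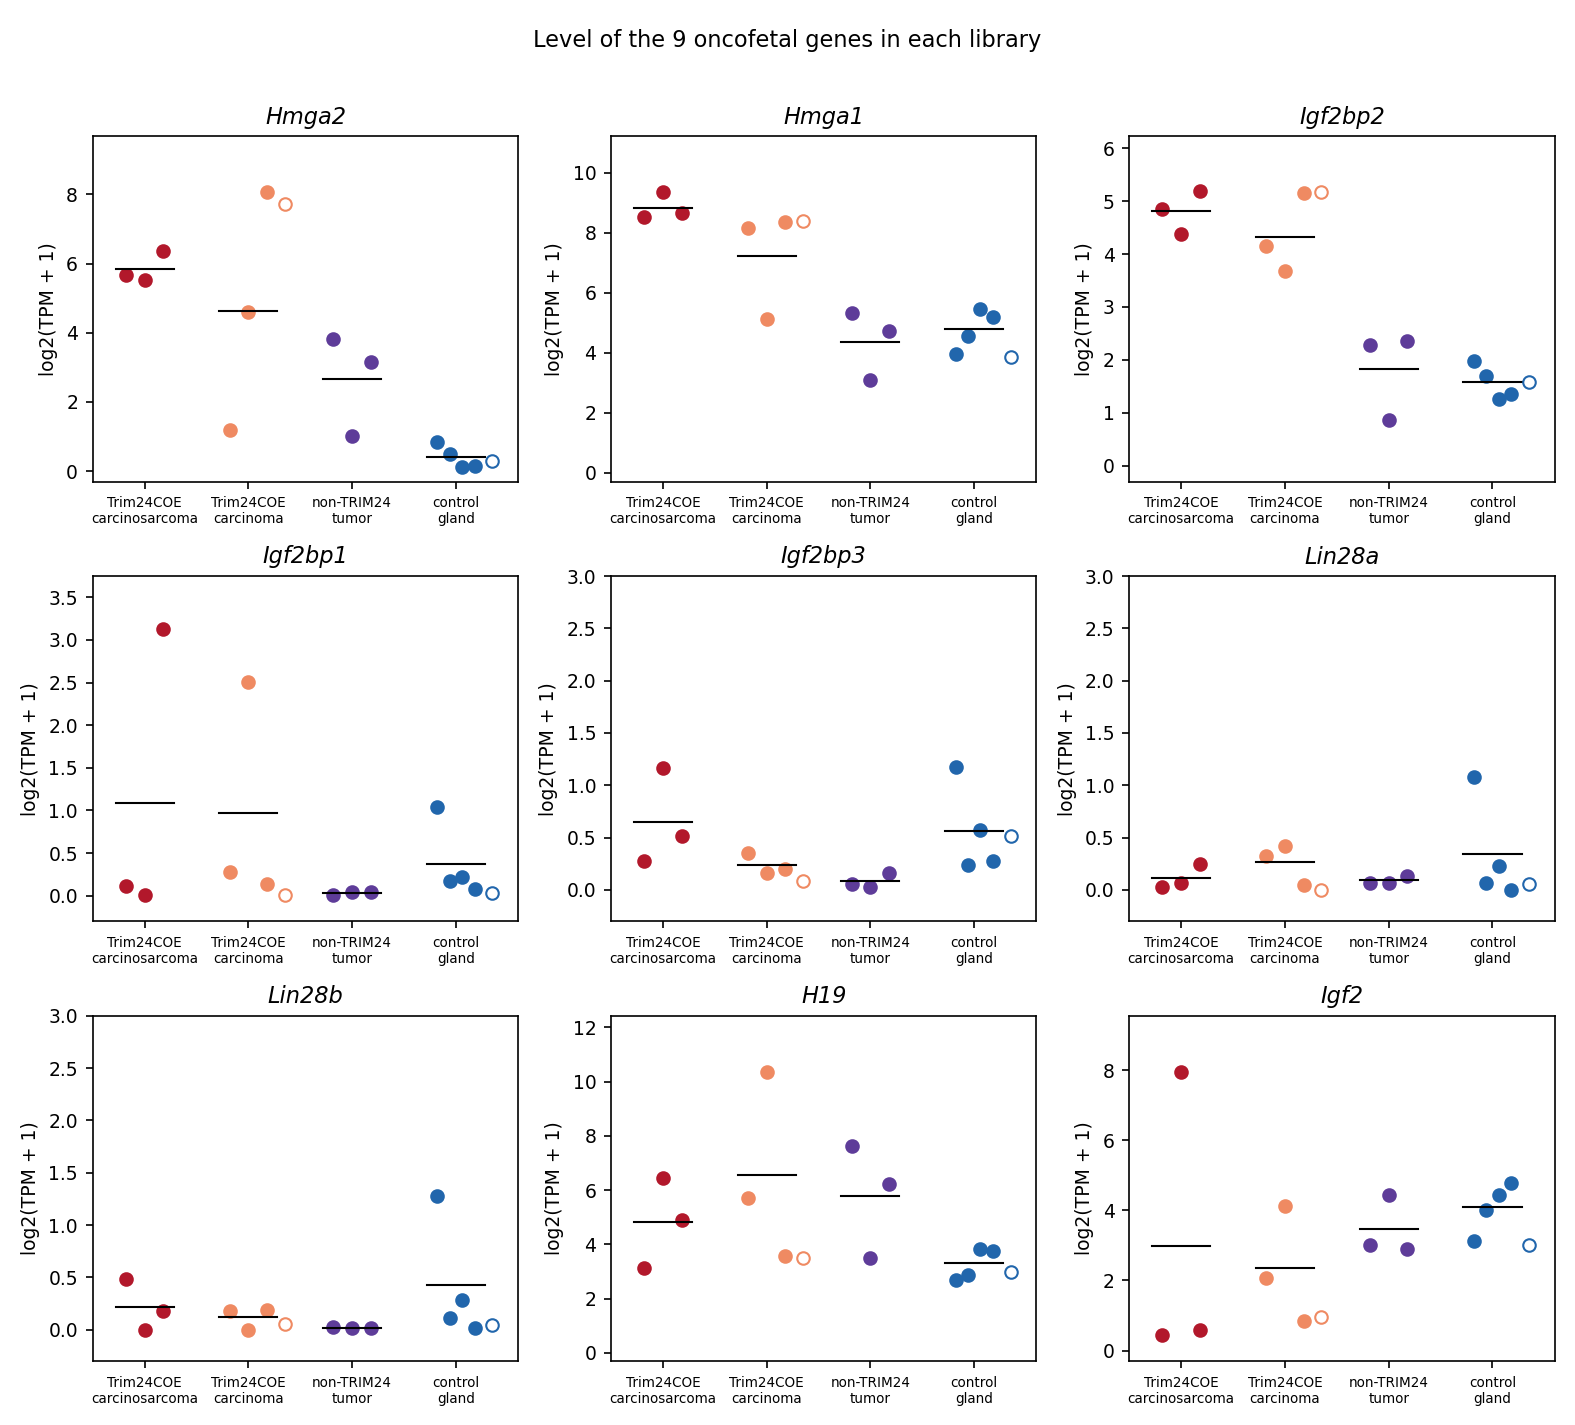
Level of each of the 9 oncofetal genes as log2(TPM + 1) in every library, by group (filled circles, first libraries; open circles, repeat libraries; bars, group means of first libraries). Hmga2 and Igf2bp2 are higher in all 6 Trim24COE tumors than in all 4 glands, while Lin28a and Lin28b stay low throughout.

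Hmga1 (ENSMUSG00000046711.16, chr17:27556497-27563674, plus strand), the relative of Hmga2 that many dividing cells keep, was the most abundant member in the carcinosarcomas, at 365, 649 and 400 TPM in 64, 567 and 897. The carcinomas had 284 TPM in 89, 34.0 in 273_5 and 330 in 3956. The glands had 14.4, 22.3, 43.3 and 35.7 TPM in 133, 392, 417_3 and 517_3. Tumor 273_5 therefore fell inside the gland range, and the other 5 Trim24COE tumors lay above it. In the non-TRIM24 tumors 219, FVB001 and FVB002, Hmga1 was 38.8, 7.41 and 25.1 TPM, in or below the gland range. Repeat libraries gave 335 TPM for 3956 and 13.6 for gland 133, close to the first libraries.

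These Hmga1 values are uncertain because a near copy, Hmga1b (ENSMUSG00000078249.5, chr11:120762794-120764419, plus strand), is listed separately. Of the 2553 distinct 50-base words in annotated Hmga1 transcripts, 55% also occur in Hmga1b. Hmga1b read 7.54, 246 and 223 TPM in 64, 567 and 897, and 156, 170 and 750 in 89, 273_5 and 3956. The ratio of Hmga1 to Hmga1b was 48.4 in tumor 64 and 0.20 in tumor 273_5. The split thus differed widely between tumors whose sum differed far less. Hmga1 and Hmga1b together gave 372 to 895 TPM in carcinosarcomas, 204 to 1080 in carcinomas, 64.9 to 146 in non-TRIM24 tumors and 21.7 to 108 in glands. On the sum, all 6 Trim24COE tumors, 273_5 included, exceeded all glands. Hmga1b in tumor 3956 rose from 750 TPM in the first library to 1249 in the repeat, while Hmga1 did not move with it.

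**Figure D2:**
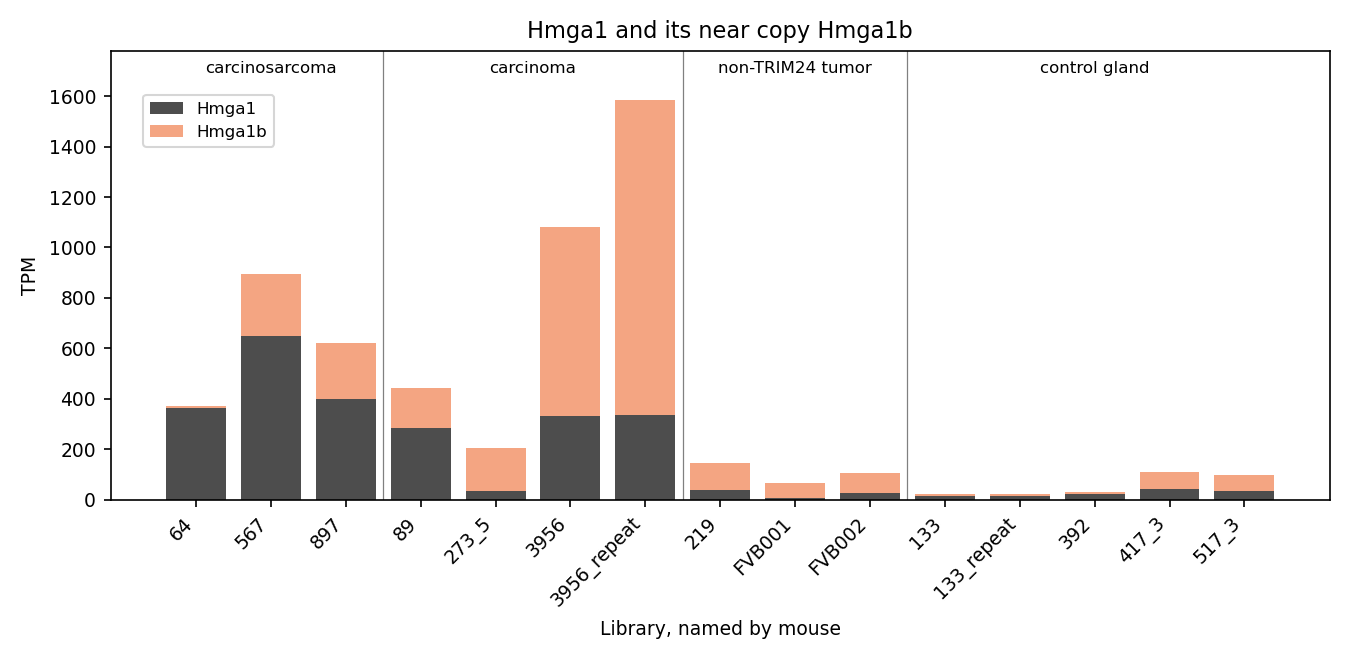
Stacked bars of Hmga1 and Hmga1b TPM in each library, named by mouse and grouped by class. The share given to each gene varies, with almost no Hmga1b in tumor 64 and mostly Hmga1b in 273_5 and 3956, whereas the summed height is above 200 TPM in every Trim24COE tumor and at most 108 in the glands.

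Igf2bp2 (ENSMUSG00000033581.17, chr16:22059009-22163299, minus strand) was the IGF2BP member that mammary tissue expressed. It reached 27.9, 19.9 and 35.4 TPM in carcinosarcomas 64, 567 and 897. The carcinomas 89, 273_5 and 3956 had 16.7, 11.8 and 34.4 TPM. Glands 133, 392, 417_3 and 517_3 had 2.96, 2.24, 1.40 and 1.57 TPM. The Trim24COE tumors and the glands did not overlap, and Igf2bp2 had the smallest spread among these 6 tumors relative to its mean (24.3 ± 9.73 TPM, SD, n = 6) of the 9 members. Non-TRIM24 tumors 219, FVB001 and FVB002 had 3.84, 0.82 and 4.10 TPM, which overlapped the glands and lay under every Trim24COE tumor. The repeat of tumor 3956 gave 34.98 TPM and that of gland 133 gave 1.98, and no 50-base word of Igf2bp2 occurs in another listed gene.

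Igf2bp1 (ENSMUSG00000013415.9, chr11:95957163-96005940, minus strand), the most strictly fetal of the 3, was present in 2 Trim24COE tumors. It stood at 7.72 TPM in carcinosarcoma 897 and at 4.67 in carcinoma 273_5, and at 0.08, 0.01, 0.21 and 0.10 in 64, 567, 89 and 3956. The non-TRIM24 tumors had 0.01 to 0.03 TPM and glands 392, 417_3 and 517_3 had 0.06 to 0.16. Gland 133 read 1.05 TPM in its first library and 0.02 in its repeat. The 2 tumors with Igf2bp1 belong to different classes.

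Igf2bp3 (ENSMUSG00000029814.10, chr6:49085223-49214957, minus strand) was low everywhere. Its highest tumor value was 1.25 TPM in 567, and the other 5 Trim24COE tumors had 0.12 to 0.43. The glands had 0.18 to 1.26 TPM, the highest again in the first library of 133, whose repeat gave 0.43. Non-TRIM24 tumors had 0.02 to 0.12 TPM. Igf2bp3 values may carry a further limit, since 18.1% of its 50-base words also occur in Malsu1, on either strand. The search did not tell a shared sense sequence from an antisense overlap.

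The LIN28 genes, which block let-7, stayed near the bottom of the scale in all tumors. Lin28a (ENSMUSG00000050966.9, chr4:134003330-134018841, minus strand) was between 0.02 and 0.34 TPM in the 6 Trim24COE tumors. Lin28b (ENSMUSG00000063804.8, chr10:45376620-45486395, minus strand) was between 0 and 0.40. Only the first library of gland 133 exceeded 1 TPM, with 1.11 for Lin28a and 1.43 for Lin28b, and its repeat had 0.04 and 0.03. The value above 1 TPM was therefore not seen in the second library of the same gland. In the 6 Trim24COE tumors, where both Lin28 genes were listed at no more than 0.40 TPM, Igf2bp2 ran from 11.8 to 35.4 TPM. Hmga2 ran from 1.29 to 267 TPM in them. Whether these levels are linked was not tested.

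H19 (ENSMUSG00000000031.16, chr7:142575529-142578143, minus strand) separated individual tumors rather than classes. Carcinosarcomas 64, 567 and 897 had 7.79, 87.2 and 28.7 TPM. Carcinomas 89, 273_5 and 3956 had 51.8, 1313 and 10.9. In tumor 273_5, H19 ranked 122 of all 51826 genes. Glands 133, 392, 417_3 and 517_3 had 5.47, 6.42, 13.4 and 12.7 TPM, so that 4 of 6 Trim24COE tumors lay above the glands while 64 and 3956 lay within their range. Non-TRIM24 tumors 219, FVB001 and FVB002 had 197, 10.4 and 74.6 TPM. Repeats of 3956 and 133 gave 10.2 and 6.90 TPM, close to the first libraries.

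Igf2 (ENSMUSG00000048583.16, chr7:142650766-142666816, minus strand), a ligand of the IGF1 receptor, was lower than in the glands in most Trim24COE tumors. It was 0.36, 247 and 0.49 TPM in carcinosarcomas 64, 567 and 897, and 3.23, 16.3 and 0.78 in carcinomas 89, 273_5 and 3956. Glands 133, 392, 417_3 and 517_3 had 7.68, 14.99, 20.7 and 26.2 TPM. Of the 6 Trim24COE tumors, 4 thus lay below all glands, 273_5 lay inside their range and 567 lay far above. Non-TRIM24 tumors 219, FVB001 and FVB002 had 7.11, 20.8 and 6.47 TPM. The repeats of 3956 and 133 gave 0.94 and 7.09 TPM. H19 exceeded Igf2 in 5 of 6 Trim24COE tumors, by 13.96-fold in 3956 up to 80.6-fold in 273_5, whereas Igf2 exceeded H19 in all 4 glands, by 1.40-fold to 2.34-fold. Tumor 567 followed the glands, with Igf2 2.84-fold above H19, and so did FVB001, with 2-fold, whereas H19 exceeded Igf2 by 27.7-fold in 219 and 11.5-fold in FVB002.

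**Figure D3:**
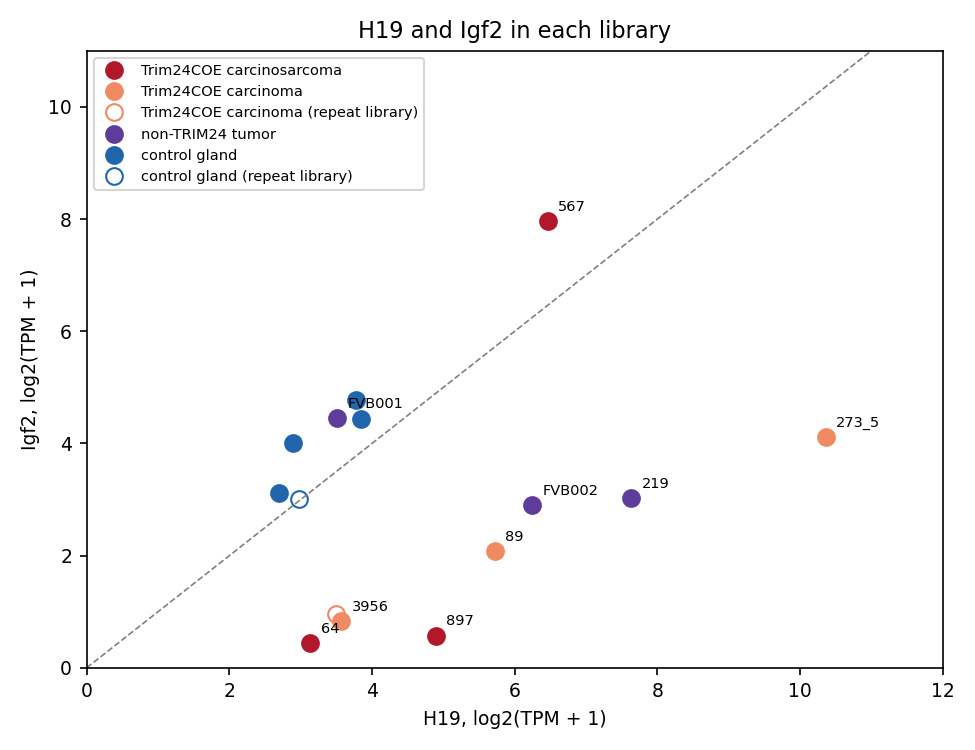
H19 (horizontal axis) against Igf2 (vertical axis), both as log2(TPM + 1), in each library (filled, first libraries; open, repeats; dashed line, equal levels). Glands, FVB001 and tumor 567 lie above the line (the repeat of gland 133 lies close to it), and the other 5 Trim24COE tumors lie below it.

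Tumor 567 also had the highest summed fibroblast markers of all libraries, 9084 TPM, and the most skeletal muscle markers of any tumor, 1214 TPM. The glands summed to 595 to 1183 TPM for fibroblast markers. Gland 392 had 2673 TPM of muscle markers with 14.99 TPM of Igf2. Tumor 64 was second in summed fibroblast markers, with 6165 TPM, of which Col1a2 alone gave 4185, and had 0.36 TPM of Igf2. By mean log2(TPM + 1) of the same markers, tumor 89 (7.06) lay above tumor 64 (7.01). Carcinoma 273_5, the H19-high tumor, had the lowest fibroblast sum, 462 TPM, and 2481 TPM of epithelial markers. The part of these cell types in the H19 and Igf2 levels was not tested.

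As fitted on log2(TPM + 1) with limma, the difference of Trim24COE tumors minus glands was 4.83 ± 1.01 (SE) for Hmga2, 3.24 ± 0.69 for Hmga1, 2.99 ± 0.34 for Igf2bp2, 2.39 ± 1.15 for H19 and −1.41 ± 1.298 for Igf2. These 5 of the 9 members passed the filter of 1 TPM in at least 4 libraries. No p is given because the members were chosen on these values. For Hmga2 and Igf2bp2, all 6 tumors lay above all 4 glands, a pattern that 7.39% of the 15196 genes tested show, and nothing is read from that count for members chosen on this contrast. Every one of the 5 kept its sign with any single mouse left out and under 2 other scalings between libraries.

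Carcinosarcomas were set against carcinomas to ask whether the members differ between the metaplastic and the epithelial class of Trim24COE tumor. Hmga1 had a fitted difference, carcinosarcoma minus carcinoma, of 1.62 on the log2 scale (95% interval −0.36 to 3.59, adjusted p = 0.407), and its classes did not overlap. Hmga1 was the only member whose classes did not overlap, a pattern shown by 21.8% of the 14193 genes tested. With Hmga1b added, the difference was 0.36 and the classes overlapped, and without 273_5 the difference of Hmga1 alone was 0.57. For Hmga2 the difference was 1.22 (−2.38 to 4.82, adjusted p = 0.739), and without carcinoma 89 it turned to −0.49. For Igf2bp2 it was 0.49 (−0.53 to 1.496, adjusted p = 0.627). H19 differed by −1.72 (−5.71 to 2.27, adjusted p = 0.661) and by 0.18 without 273_5. Igf2 differed by 0.65 (−4.13 to 5.43, adjusted p = 0.908) but by −1.83 without 567 and −0.10 without 3956.

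By limma, 0 of the 5 members tested passed an adjusted p of 0.05, where 0.113% of all genes passed as higher and 0.585% as lower. At an unadjusted p of 0.05, 0 of the 5 passed and 15% of all genes did. In the two-sided exact permutation test of 3 against 3 tumors, which was run on all 9 members, Hmga1 gave p = 0.1, the smallest p this design allows, and the others gave 0.2 to 1. The intervals are wide enough to hold differences of several fold for Hmga2, H19 and Igf2.

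Carcinomas of Trim24COE mice were set against non-TRIM24 tumors to compare mammary tumors with and without the transgene. The fit carried a batch term over all 15 libraries, and the 2 repeats entered as libraries of their own, without a term for mouse. The batch term thus set each repeat against the mean of its group's first libraries, not against its own mouse alone. From first library to repeat, Hmga2 changed by −0.33 in tumor 3956 and −0.56 in gland 133 on the log2 scale. The intervals and p below treat libraries of the same mouse as independent. Igf2bp2 was 3.01 higher on the log2 scale in the Trim24COE carcinomas (95% interval 1.82 to 4.20, adjusted p = 0.101). Hmga1 was 3.22 higher (1.11 to 5.33, adjusted p = 0.168) and Hmga2 3.81 higher (0.45 to 7.17, adjusted p = 0.241). For Igf2bp1 the difference was 0.22 (−1.72 to 2.15, adjusted p = 0.912), for H19 −1.24 (−5.05 to 2.56, adjusted p = 0.718) and for Igf2 −2.38 (−6.33 to 1.58, adjusted p = 0.496). Igf2bp1 passed the filter through carcinoma 273_5, carcinosarcoma 897 and the first library of gland 133. Over first libraries alone, its difference of mean log2(TPM + 1) was 0.94.

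None of these 6 members passed the adjusted threshold in limma, where 0.0179% of the 16775 genes tested did. At an unadjusted p of 0.05, 3 of the 6 passed (Igf2bp2, Hmga1 and Hmga2), as did 17.7% of all genes. Without the libraries of tumor 3956 the differences were 0.11 for Hmga2, 1.36 for Hmga1 and 2.08 for Igf2bp2. Without tumor 273_5, the adjusted p fell to 0.0187 for Igf2bp2 and 0.0264 for Hmga1. Igf2bp2 also passed without tumor 219, at 0.0365. Over all fits that left out a mouse, the highest adjusted p in limma was 0.9997 for Igf2bp2 and for Hmga1. Without a batch term the difference of Hmga2 was 1.95 in place of 3.81, and that of H19 was 0.76 in place of −1.24. In first libraries, Igf2bp1 and Igf2bp2 did not overlap between these classes (exact permutation p = 0.1 for each), as 36.4% of all genes did not, and every non-TRIM24 tumor was in batch 2. The exact permutation p of the other members ran from 0.2 to 0.8, with 0.2 for Hmga1 and 0.4 for Hmga2. The repeat of carcinoma 3956 read 0.01 TPM of Igf2bp1, inside the non-TRIM24 range of 0.01 to 0.03.

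Within batch 2 the repeat library of tumor 3956 can be set beside the 3 non-TRIM24 tumors without crossing batches, with 1 library on its side. Hmga2 was 211 TPM against 1.03 to 13.1, Hmga1 335 against 7.41 to 38.8 and Igf2bp2 34.98 against 0.82 to 4.10. Igf2 was 0.94 TPM against 6.47 to 20.8, and H19 10.2 against 10.4 to 197. Both Hmga genes and Igf2bp2 were thus higher and Igf2 lower in that carcinoma library than in each non-TRIM24 tumor, while H19 was next to the lowest of them. Adipocyte markers summed to 81.8 TPM in this repeat, 137 in 219, 40146 in FVB001 and 18908 in FVB002. The part of adipocyte content in these differences was not tested.

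**Figure D4:**
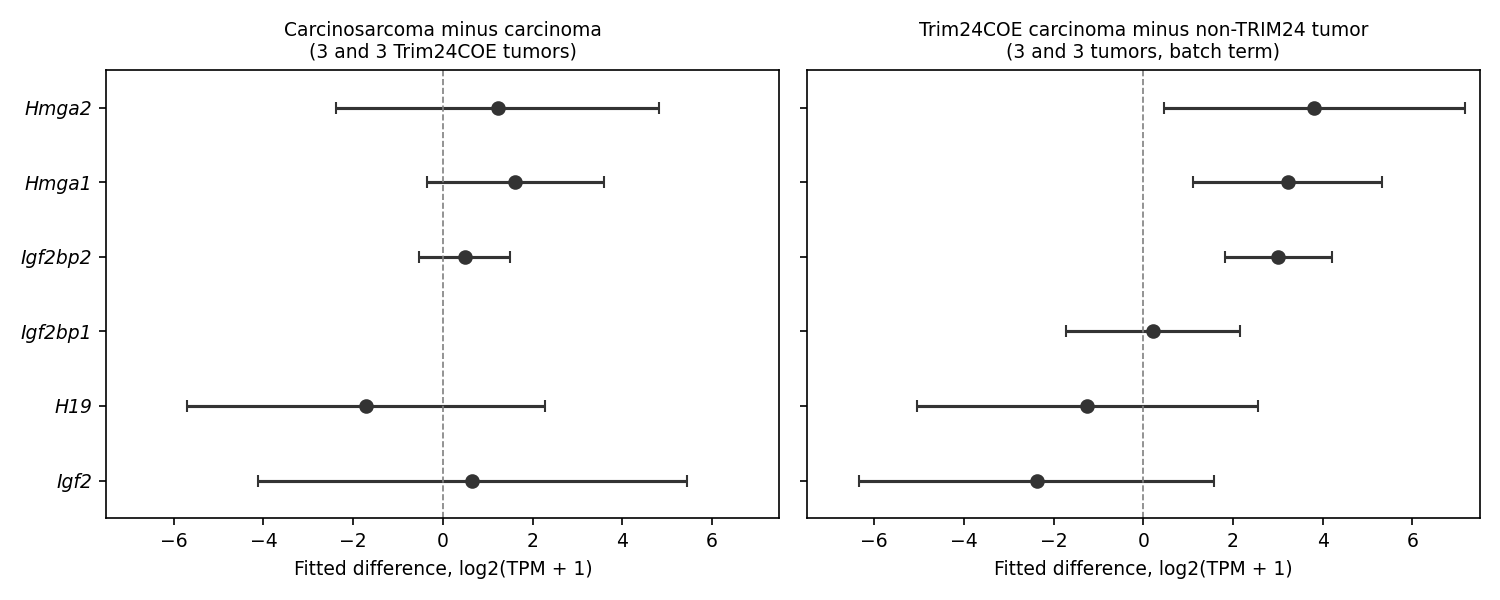
Fitted differences on the log2(TPM + 1) scale with 95% intervals (limma) for the members tested, carcinosarcoma minus carcinoma on the left and Trim24COE carcinoma minus non-TRIM24 tumor on the right. The intervals of Hmga2, Hmga1 and Igf2bp2 lie above 0 on the right without passing the adjusted threshold, and all intervals on the left include 0. On the right, repeat libraries were treated as independent of the first libraries.

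Genes around the members were taken from lists of related function. These lists were chosen with earlier results of these data known. Their p and counts are therefore not independent of those results. Against the glands, 7.96% of the genes tested were higher in Trim24COE tumors and 9.13% were lower, with a median change of −0.04 over all genes. Of the 17 genes of the IGF axis, 14 were tested, of which 1 was higher and 1 lower, with a median change of −0.60. Igfbp3, a carrier that holds IGF in the circulation and in tissue, rose from 35.8 TPM (10.8 to 57.6) in glands to 359 (110 to 738) in tumors (log2 change 3.34 ± 0.57, adjusted p = 0.00361). Igfals, which stabilizes the same complexes, fell from 20.1 TPM (15.2 to 25.1) to 1.86 (0.13 to 6.20; log2 change −3.26 ± 0.54, adjusted p = 0.00306). Both calls held without each mouse in turn. Igf2r, which clears IGF2, ran from 9.61 to 35.5 TPM in the tumors and from 8.48 to 25.7 in the glands, and did not pass. With adipocyte content as a covariate, Igfbp3 no longer passed (adjusted p = 0.0873), and neither did Igfals (0.0557).

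Of 14 let-7 processing genes, 13 were tested, with 1 higher and 1 lower and a median of −0.19. Tarbp2, a partner of Dicer, was higher by 0.80 ± 0.20 (adjusted p = 0.0193), from 24.6 TPM in glands to 43.5 in tumors, and passed in 9 of 10 fits that left out a mouse (not without gland 517_3). Ago4, an Argonaute protein, was lower by 1.10 ± 0.23 on the log2 scale (adjusted p = 0.00935), from 3.37 TPM to 1.05. With the adipocyte covariate neither passed (adjusted p = 0.102 for Tarbp2 and 0.153 for Ago4). Of 20 known let-7 targets outside the member list, 17 were tested, 2 rose and 0 fell, with a median of 0.08. Nras, a RAS oncogene, went from 27.3 to 73.9 TPM (1.40 ± 0.27, adjusted p = 0.00709). These 2 of 17 stand beside the 7.96% of all genes that rose, and with the adipocyte covariate 1 passed as higher and 1 as lower, Nras no longer among them (adjusted p = 0.146).

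Imprinted growth genes included 16 tested of 21, of which 0 rose and 3 fell in tumors, with a median of −0.65. The genes that fell were Plagl1, a zinc finger regulator of an imprinted network (9.83 to 2.52 TPM, adjusted p = 0.0168), Snrpn, a splicing factor (11.8 to 3.38, adjusted p = 0.0301), and Cdkn1c, a growth-limiting cyclin-dependent kinase inhibitor (29.6 to 7.20, adjusted p = 0.0492), which overlapped between groups. None of the 3 passed without gland 417_3, and Snrpn kept its call in 4 and Cdkn1c in 3 of the 10 fits that left out a mouse. With the adipocyte covariate none of the 16 fell and 1 rose, with an adjusted p of 0.177 for Plagl1 and 0.403 for Snrpn. Between tumor classes, Phlda2, a placental growth inhibitor from the imprinted cluster next to H19 and Igf2 (chr7:143501545-143503150, minus strand), had 2.21, 1.06 and 1.23 TPM in carcinosarcomas 64, 567 and 897. It had 48.4, 29.2 and 23.6 TPM in carcinomas 89, 273_5 and 3956. Glands 133, 392, 417_3 and 517_3 had 0.75, 0.98, 4.64 and 5.24 TPM. The carcinosarcomas thus lay within the gland range and the carcinomas above it. Non-TRIM24 tumors 219, FVB001 and FVB002 had 22.7, 1.94 and 9.52 TPM. Between the tumor classes, Phlda2 differed by −3.76 ± 0.36 (adjusted p = 0.0123). It was the only gene among the lists of related function to pass in that comparison. The adjusted p rose to between 0.06 and 0.106 without tumor 64, 89 or 897, and the difference stayed between −3.98 and −3.48 in every such fit. Summed epithelial markers were lower in the carcinosarcomas as well, though 0 of the 9 tested passed in limma and 4 had an unadjusted p under 0.05. Their part in the Phlda2 difference was not tested.

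**Figure D5:**
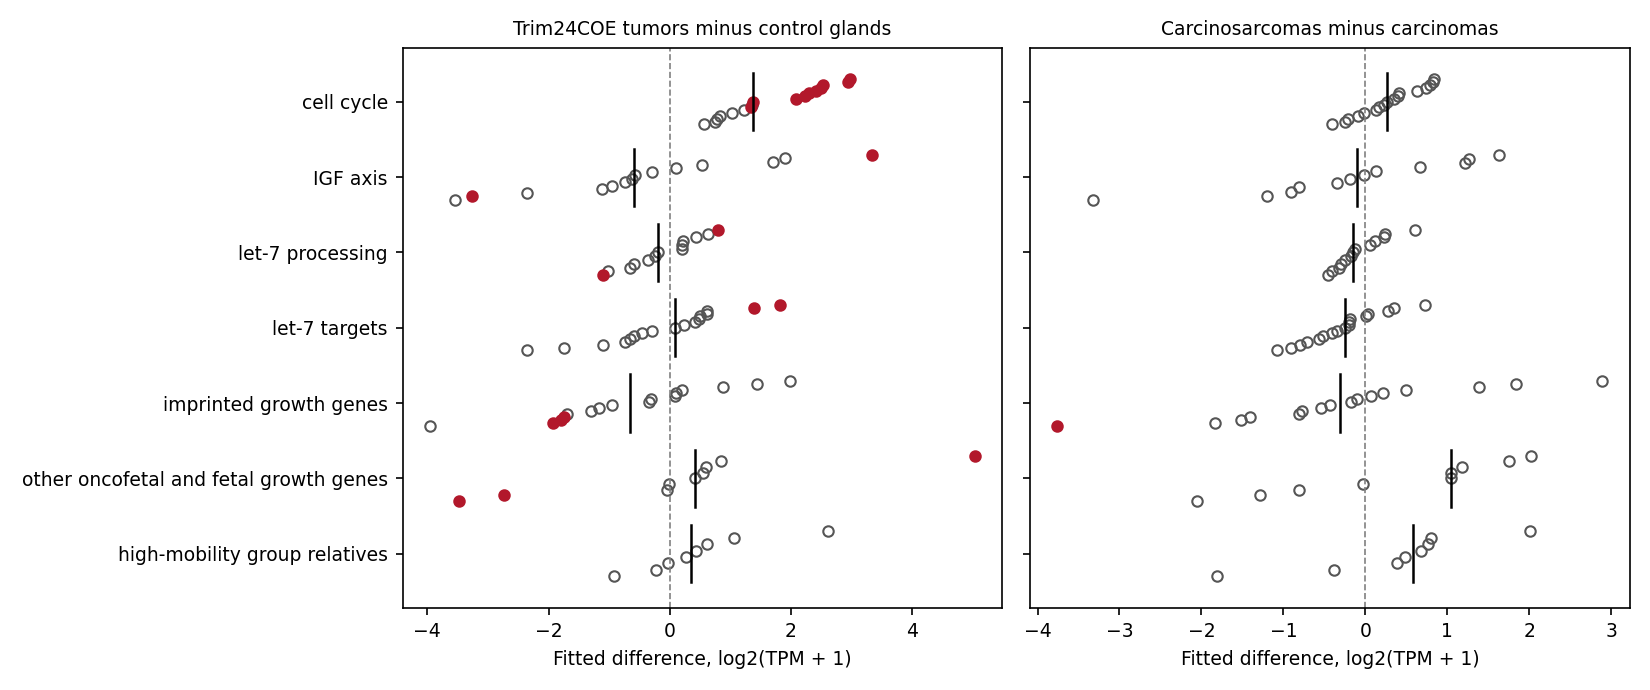
Fitted log2 differences of every tested gene in 7 lists of related function, Trim24COE tumors minus glands on the left and carcinosarcomas minus carcinomas on the right (red, adjusted p under 0.05; open, not passed; bars, list medians). Cell cycle genes cluster to the right of 0 on the left side, and Phlda2 is the single passing gene on the right.

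Other oncofetal and fetal growth genes were mixed. Of 12 genes, 9 were tested, 1 rose and 2 fell, with a median of 0.41. Tnc, which encodes the fetal matrix protein tenascin C, rose from 5.91 TPM (1.82 to 10.6) in glands to 274 (42.3 to 528) in tumors (5.04 ± 0.72, adjusted p = 0.00147). Ptn, which encodes the growth factor pleiotrophin, fell from 275 TPM (224 to 323) to 30.2 (8.59 to 78.5; −3.48 ± 0.49, adjusted p = 0.00133), and Bex1 from 11.6 to 1.08 (−2.73 ± 0.44, adjusted p = 0.00254). Each of these 3 calls held without each mouse in turn and with the adipocyte covariate. Afp, the classical oncofetal serum protein, did not pass the filter against glands and is named after its values were seen. It was 16.3 TPM in tumor 64, 2.25 in 567, 1.45 in 897 and at most 0.48 in the carcinomas and glands. Between the tumor classes, where it was tested, Afp did not overlap and did not pass (log2 difference 2.03 ± 0.72, adjusted p = 0.272). Tumor 64 also had 56.5 TPM of Peg10 and 263 of Sgce, adjacent imprinted genes, against at most 3.47 and 62.8 in any other library, and these too were chosen after their values were seen.

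Of the 8 high-mobility group relatives, Hmga1b included, 0 passed in limma (2 at an unadjusted p under 0.05, as did 32.6% of all genes), with a median of 0.35. The cell cycle list gave 10 higher and 0 lower of 17, with a median of 1.37. Birc5, which encodes survivin, went from 11.3 to 97.1 TPM (2.97 ± 0.35, adjusted p = 0.000515), Plk1, a mitotic kinase, from 2.91 to 20.4 (2.49 ± 0.35, adjusted p = 0.00134), Cdk1 from 18.4 to 122 (2.94 ± 0.44, adjusted p = 0.00174) and Aurka from 4.71 to 26.4 (2.29 ± 0.35, adjusted p = 0.00202). With the adipocyte covariate 3 of the 17 passed, Aurka not among them (adjusted p = 0.0528). Macrophage markers rose in the same tumors, with 6 of 8 called and sums of 2307 to 7142 TPM against 817 to 1458 in glands, and adipocyte markers fell, with 5 of 10 called.

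Between the 2 tumor classes, 0 genes passed in limma in the cell cycle, IGF axis, let-7 processing, let-7 target, other oncofetal and high-mobility group lists, with 1 of 17, 5 of 12, 0 of 13, 2 of 17, 2 of 9 and 2 of 8 genes at an unadjusted p under 0.05, beside 15% of all genes.

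The genes whose level most resembled each member were ranked by Pearson r of log2(TPM + 1) over the 10 first libraries of batch 1, among 13358 candidates. These r describe 6 tumors and 4 glands that differ in many genes and carry no test. For Hmga2 they were Polr2g, an RNA polymerase II subunit, at 0.95, then Snx2 and Uxs1 at 0.95 each. Igf2bp2 was followed by Pgam1, a glycolytic enzyme, at 0.98, then Mycbp and Ms4a6b at 0.97 each. For Hmga1 they were Adgra2 at 0.98, Tnfrsf9 at 0.98 and Loxl3 at 0.98. For Igf2bp1 they were Nrcam at 0.89, Etv1 at 0.87 and Emc3 at 0.86, and by Spearman rank correlation Nrcam had 0.35.

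H19 was most like Tnfrsf11b, the decoy receptor osteoprotegerin, at 0.98, followed by Cdk7 at 0.94 and Zik1 at 0.91. Tnfrsf11b was also first by rank correlation, at 0.99, and kept 0.91 over the 9 tumors. Igf2 was most like Mybph at 0.92 and Mustn1 at 0.86, both genes of muscle, and Dmbt1 at 0.85. Over the 9 tumors the r of Polr2g with Hmga2 was 0.95, that of Pgam1 with Igf2bp2 0.94 and that of Mybph with Igf2 0.78, while Nrcam with Igf2bp1 fell to 0.59 and Zik1 with H19 to 0.41. Of these 9 tumors, 6 were also used for the ranking. Igf2bp3, Lin28a and Lin28b reached 1 TPM in fewer than 3 of these libraries and were not ranked.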

How the data were processed

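RNA-seq of 15 libraries from 13 mice was analysed as TPM. The deposited TPM values were made by the authors with STAR and RSEM on GRCm38. The labels also name TopHat and Cufflinks, and the labels and the study's methods differ on the library kit. The authors tested counts with DESeq2, which were not used here. TPM keep no depth.

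The 9 members and the lists were chosen with earlier results of these data known. For the fits, limma 3.58.1 (R 4.3.3) was run on log2(TPM + 1), with a variance trend and Benjamini-Hochberg adjustment at 0.05, keeping genes that reached 1 TPM in a number of libraries equal to the size of the smaller group. In the fits with a batch term, this filter counted all 15 libraries, whatever their group. Fold changes on this scale understate those of low genes. Repeats entered only the fits with the non-TRIM24 tumors, which carried a batch term. Replicates are separate mice, except that these repeats counted as libraries of their own. Named list genes are up to 4 per direction with the smallest adjusted p among those passing without overlap between groups. Afp, Peg10, Sgce, Col1a2 and Cdkn1c fall outside this rule. A further gene that the rule names is not reported here. Of the 51826 gene IDs, 47648 are in GENCODE M21 with the same version. Python 3.11.15 was used for exact tests. The fits were tested on simulated data. Alternatives changed pseudocount, filter, scaling, samples, batch term and each mouse.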

Additional observations from a re-analysis of the deposited data

Results flagged for a closer look

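Several single libraries stood apart from their group in TPM, by the gap to the nearest other library over the group's range (Dixon's 95% limit), in 18 checks of which chance flags about 1 in 20. Among the 6 Trim24COE tumors these were Hmga2 in tumor 3956 (266.82 TPM), H19 in 273_5 (1312.62 TPM), Igf2 in 567 (247.46 TPM), Igf2bp3 in 567 (1.25 TPM) and Lin28b in 64 (0.40 TPM). Among the 4 glands they were Igf2bp1 (1.05 TPM), Lin28a (1.11 TPM) and Lin28b (1.43 TPM), each in the first library of gland 133, whose repeat read 0.02, 0.04 and 0.03 TPM. On the log2(TPM + 1) scale 3 checks stood out: Igf2bp1 in gland 133, Igf2bp3 in tumor 567 and, at the low end, Hmga1 in tumor 273_5. The repeat of tumor 3956 gave Hmga2 at 211 TPM, so that value recurred in a second library of the same tumor.

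Phlda2 differed between the carcinosarcomas and the carcinomas, which were set against the same glands (log2 difference −3.76, adjusted p = 0.0123 by limma, lower in 3 of 3 carcinosarcomas). The carcinosarcomas lay within the gland range of 0.75 to 5.24 TPM, and the carcinomas lay above it.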

How the results depend on the processing

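No paired analysis was possible because mouse numbers differ between the groups. The count of genes passing in tumors against glands was 928 with the adipocyte covariate in place of 2597. Between the tumor classes it was 0 without the filter, in place of 99, and 0 to 293 with each mouse left out (0 without 64 or 89, 293 without 3956). For non-TRIM24 tumors against glands it was 18, with 5 at a pseudocount of 0.1, 33 with median-ratio scaling, 907 without a batch term, 119 with libraries of a mouse linked and 7 to 95 with each mouse left out (7 without gland 517_3, 95 without FVB001). For Trim24COE carcinomas against non-TRIM24 tumors it was 3, with 8 without the filter, 5 with median-ratio scaling, 6 with quantile normalization, 985 without a batch term, 5 with libraries of a mouse linked and 0 to 230 with each mouse left out (0 without 3956, 230 without 273_5).

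With each mouse left out, the difference between tumor classes ran from −0.49 to 2.95 for Hmga2, from −3.21 to 0.18 for H19 and from −1.83 to 1.92 for Igf2. Against non-TRIM24 tumors it ran from 1.36 to 3.69 for Hmga1, from −0.076 to 1.01 for Igf2bp1, from 2.08 to 3.27 for Igf2bp2 and from −2.39 to 1.93 for H19. That of H19 was 0.76 without a batch term and 0.73 with libraries of a mouse linked. Non-TRIM24 tumors minus glands ran from −0.70 to 1.96 for Hmga2 and from −1.88 to 0.33 for Hmga1. The cause was not tested. Median-ratio scaling moved the median of all genes from 0.21 to −0.05 for carcinomas against non-TRIM24 tumors and from −0.21 to −0.08 for non-TRIM24 tumors against glands. The lists' counts and the sum of Hmga1 and Hmga1b under these alternatives were added after seeing the data.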
